A study of Mus musculus with 6 samples.

Results

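Genes that act from late G2 to the end of cell division were followed in mouse bone marrow-derived macrophages exposed to tumour cell conditioned medium. The set holds 39 named genes, each chosen by symbol for a textbook role in G2 or mitosis, out of 55421 genes in the deposited table. All 39 had enough counts to be tested. Macrophages were grown from wild-type mouse bone marrow in RPMI-1640 medium with 10% fetal bovine serum, antibiotics and 20 ng/mL of M-CSF, the growth factor on which cultured macrophages depend. For 24 h, 3 wells stayed in that medium (untreated) and 3 wells received it mixed with an equal volume of medium conditioned by LL-2 cells, so that conditioned medium made up 50% of the volume. LL-2 is a mouse Lewis lung carcinoma line. Whether the wells trace back to different animals is not stated, so the p-values measure only the spread between wells, which may be technical. A well here means a single sequenced library, and the labels give each a replicate number without saying what it stands for. Medium conditioned by other cells was not analysed here, and the labels name the same serum and M-CSF concentrations for both groups but do not say whether these hold for the final mixture, so factors from LL-2 cells, used-up nutrients and diluted M-CSF or serum cannot be told apart.

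A cell enters mitosis when cyclin B-bound CDK1 becomes active. Aurora and Polo-like kinases then help to build the spindle, condensins and topoisomerase II compact the chromosomes, kinetochores attach them to microtubules, and the spindle checkpoint holds back the anaphase-promoting complex until attachment is complete. The transcripts of these genes build up in G2 and are low in resting cells, and macrophages cultured with M-CSF keep a dividing fraction. Many of these genes are known to be repressed by the DREAM complex, which binds the CHR element (TTTGAA or TTCGAA), and activated by B-MYB, FOXM1 and NF-Y, the last of which binds CCAAT boxes. In bulk RNA, fewer dividing cells and less RNA per dividing cell cannot be told apart.

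Promoter stretches of 7 members are shown because they carry, or lack, matches to these known elements: Cdk1 and the B-type cyclins Ccnb1 and Ccnb2, the mitotic kinase Plk1, the anaphase activator Cdc20, and Cenpf and Ndc80, the pair of members with the lowest fitted values. They do not stand for every role. Each is the 200 bases before the gene's listed start in RefSeq's annotation of GRCm38.p6, written 5′ to 3′ on the gene's own strand. Capitals mark every match on either strand to the NF-Y box or the CHR. The box reads CCAAT, and ATTGG where it lies on the opposite strand. The CHR reads TTTGAA, and the opposite strand then shows TTCAAA. Its other form, TTCGAA, is its own reverse complement. A match describes these letters and is not a measured binding site.
Cdk1, chr10:69352913-69353112, minus strand: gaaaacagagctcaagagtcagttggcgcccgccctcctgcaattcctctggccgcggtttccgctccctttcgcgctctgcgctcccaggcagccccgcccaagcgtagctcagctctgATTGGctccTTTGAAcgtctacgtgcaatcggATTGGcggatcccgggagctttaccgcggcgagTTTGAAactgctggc
Ccnb1, chr13:100786487-100786686, minus strand: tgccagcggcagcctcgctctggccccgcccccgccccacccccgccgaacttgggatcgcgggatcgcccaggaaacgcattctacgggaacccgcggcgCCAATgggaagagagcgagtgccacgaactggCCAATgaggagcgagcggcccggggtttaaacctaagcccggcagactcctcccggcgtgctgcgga
Ccnb2, chr9:70421555-70421754, minus strand: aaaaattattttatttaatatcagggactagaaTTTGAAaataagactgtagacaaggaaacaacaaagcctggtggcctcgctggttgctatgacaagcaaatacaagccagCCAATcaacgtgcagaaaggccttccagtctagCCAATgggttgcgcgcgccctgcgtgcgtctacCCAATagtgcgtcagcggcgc
Plk1, chr7:122159235-122159434, plus strand: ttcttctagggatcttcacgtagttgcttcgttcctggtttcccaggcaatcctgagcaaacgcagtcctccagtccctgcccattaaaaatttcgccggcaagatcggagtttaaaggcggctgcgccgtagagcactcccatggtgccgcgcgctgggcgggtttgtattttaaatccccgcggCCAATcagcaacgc
Cdc20, chr4:118437344-118437543, minus strand: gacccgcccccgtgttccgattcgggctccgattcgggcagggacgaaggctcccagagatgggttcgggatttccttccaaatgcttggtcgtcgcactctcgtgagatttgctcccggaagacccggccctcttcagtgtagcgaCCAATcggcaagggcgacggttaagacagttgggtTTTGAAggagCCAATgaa
Cenpf, chr1:189688087-189688286, minus strand: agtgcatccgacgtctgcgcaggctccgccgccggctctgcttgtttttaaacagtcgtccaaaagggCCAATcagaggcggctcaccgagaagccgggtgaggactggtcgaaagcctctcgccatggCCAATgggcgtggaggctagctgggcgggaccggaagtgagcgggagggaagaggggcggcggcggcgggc
Ndc80, chr17:71526858-71527057, minus strand: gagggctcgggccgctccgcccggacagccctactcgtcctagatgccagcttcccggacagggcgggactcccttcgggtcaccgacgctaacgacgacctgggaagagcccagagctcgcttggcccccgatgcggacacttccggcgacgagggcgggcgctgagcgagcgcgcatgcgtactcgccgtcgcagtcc

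The 6 libraries held between 24179548 and 30040682 counts, with the 3 untreated libraries at the lower end (24179548 to 25916709) and the 3 conditioned-medium libraries at the upper end (28447825 to 30040682), so that 3 counts stood for 0.0984 to 0.125 CPM, counts scaled to library size. The labelled cell type matched its markers: all 10 macrophage markers exceeded 1 CPM, and their summed level was 51700 to 61000 CPM in untreated wells and 58200 to 62800 CPM in conditioned-medium wells. Most of that sum was Lyz2 (42000 to 51600 CPM over the 6 wells). Of the 10, Csf1r, Mertk, Itgam and Mrc1 rose, and Adgre1, Cd68, Fcgr1 and Aif1 fell, with log2 fold changes from -0.66 for Cd68 to 0.63 for Mrc1. The 6 monocyte markers all rose, from a sum of 267 to 303 CPM to one of 1330 to 1370 CPM. Among 7 markers of haematopoietic progenitors, which divide, Kit, Flt3 and Gata2 fell, and the sum was 16.3 to 24.2 CPM in untreated and 11.2 to 19.0 CPM in conditioned-medium wells. Of 7 mast cell and basophil markers 4 had enough counts to be tested, and these 4 fell (13.4 to 20.6 CPM, then 3.30 to 7.85 CPM), and of 6 dendritic cell markers 3 fell (19.0 to 27.0 CPM, then 8.98 to 14.6 CPM). Neutrophil and granulocyte precursor markers split, with 2 lower and 2 higher of 12 (422 to 617 CPM, then 511 to 601 CPM). Of 5 endothelial markers 1 fell and 3 rose (33.8 to 45.7 CPM, then 29.2 to 51.7 CPM), and of 6 B cell markers 1 fell (14.2 to 17.5 CPM, then 11 to 17 CPM). Most erythroid, T and NK cell and epithelial carcinoma markers had too few counts to be tested. Of 9, 7 and 10 such markers 1 each was tested, Gata1 (adjusted p = 0.811), Klrb1c (0.0860) and Cdh1 (0.616), and the 7 fibroblast markers tested of 9 had adjusted p from 0.103 to 0.780. The untreated sums of these 4 lists were 2.89 to 4.31, 1.08 to 1.82, 0.836 to 1.24 and 17.2 to 70.8 CPM, and the conditioned-medium sums 2.00 to 4.49, 0.722 to 0.887, 0.723 to 1.44 and 33.5 to 98.7 CPM. The carcinoma markers Cldn3, Cldn4 and Nkx2-1 had no count in any library, as did 3 of the 9 erythroid markers. The part that any of these other cell types plays in the results on mitotic genes was not tested.

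G2 and mitosis genes were lower as a group in conditioned medium, by a moderate amount. Their summed level was 519, 564 and 434 CPM in the untreated wells and 355, 378 and 340 CPM in the conditioned-medium wells. Every conditioned-medium well lay below every untreated well, and the library untreated 3 stood below the other untreated wells. Of the 39 members, 30 fell and 0 rose at an adjusted p under 0.05 (edgeR's quasi-likelihood test with Benjamini-Hochberg adjustment over all 13853 genes tested), where 15.2% of all tested genes fell (2112) and 12.6% rose (1749). Without scaling beyond the total count those numbers over all genes became 1710 and 2656, and 26 members fell. At an unadjusted p under 0.05, 33 members were lower and 0 higher, and the share over all genes at that level was not taken. DESeq2 called 31 members lower and 0 higher, beside 2007 and 1438 of all 13853 genes. For limma-voom the counts were 29 and 0, beside 2102 and 1723. The fitted log2 fold change was below 0 for all 39, against 48.1% of all tested genes. Its median over the members was -0.63 (interquartile range -0.77 to -0.47), beside a median of 0.01 over all tested genes (interquartile range -0.17 to 0.17). In 31 members no conditioned-medium well reached the lowest untreated well, which held for 21.6% of all genes.

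The changes were mostly smaller than 2-fold. Fitted values ran from -1.09 for Cenpf to -0.07 for Mki67 on the log2 scale, and only Cenpf both passed the test and was lower by at least 2-fold. Against a threshold of 1.5-fold (glmTreat), 0 members passed, where 2.25% of all genes passed as lower. At an unadjusted p under 0.05 in that test 10 members passed, and 0 passed in the thresholded tests of DESeq2 and limma-voom. Shares over all genes were not taken for these last counts. With the replicate number as a block, 5 members passed the 1.5-fold threshold (Cenpf, adjusted p = 0.00702, Top2a 0.0190, Ndc80 0.0316, Ccna2 0.0390 and Bub1b 0.0409) beside 3.57% of all genes. The block left 35 members lower at the ordinary threshold, beside 19.3% of all genes. The count of 30 was 19 without untreated 1, 20 without untreated 2 and 33 without untreated 3. Calls over all genes moved as well: 1719, 1579 and 2001 genes fell in these fits, against 2112 with all libraries. Untreated 1 or untreated 2 held the highest untreated value for every member, and untreated 3 was the lowest of its group for 37 of the 39 members. Of the 30 called members, 12 lost the call when some single library was left out, and 18 kept it under all 16 alternatives run. The strand setting of the counting is not given in the sources used here, and 7 members (Ccna2, Cdc20, Cdca8, Kif20a, Kif4, Nusap1 and Prc1) share exon bases with an opposite-strand gene above 1 CPM, from 2.84% of exon bases in Cdc20 to 29.3% in Kif20a, so their values are less certain. Among the other 32 members 24 fell, with a median of -0.65. Ccnb1 also has near-identical pseudogenes, which held almost no counts. Cenpf, Birc5, Racgap1 and Ube2c share stretches of at least 150 bases at 95% identity or more with expressed genes elsewhere. For Cenpf (4.30 CPM) these included H2-T23 (175 bases, 423 CPM) and Slfn5 (174 bases, 308 CPM). Ndc80 (4.71 CPM) shares 303 bases at 95.05% identity with 2700099C18Rik, annotated as a transcribed pseudogene (0.773 CPM). How reads with several matches were handled is not given, so the values of these members are also less certain.

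**Figure D1:**
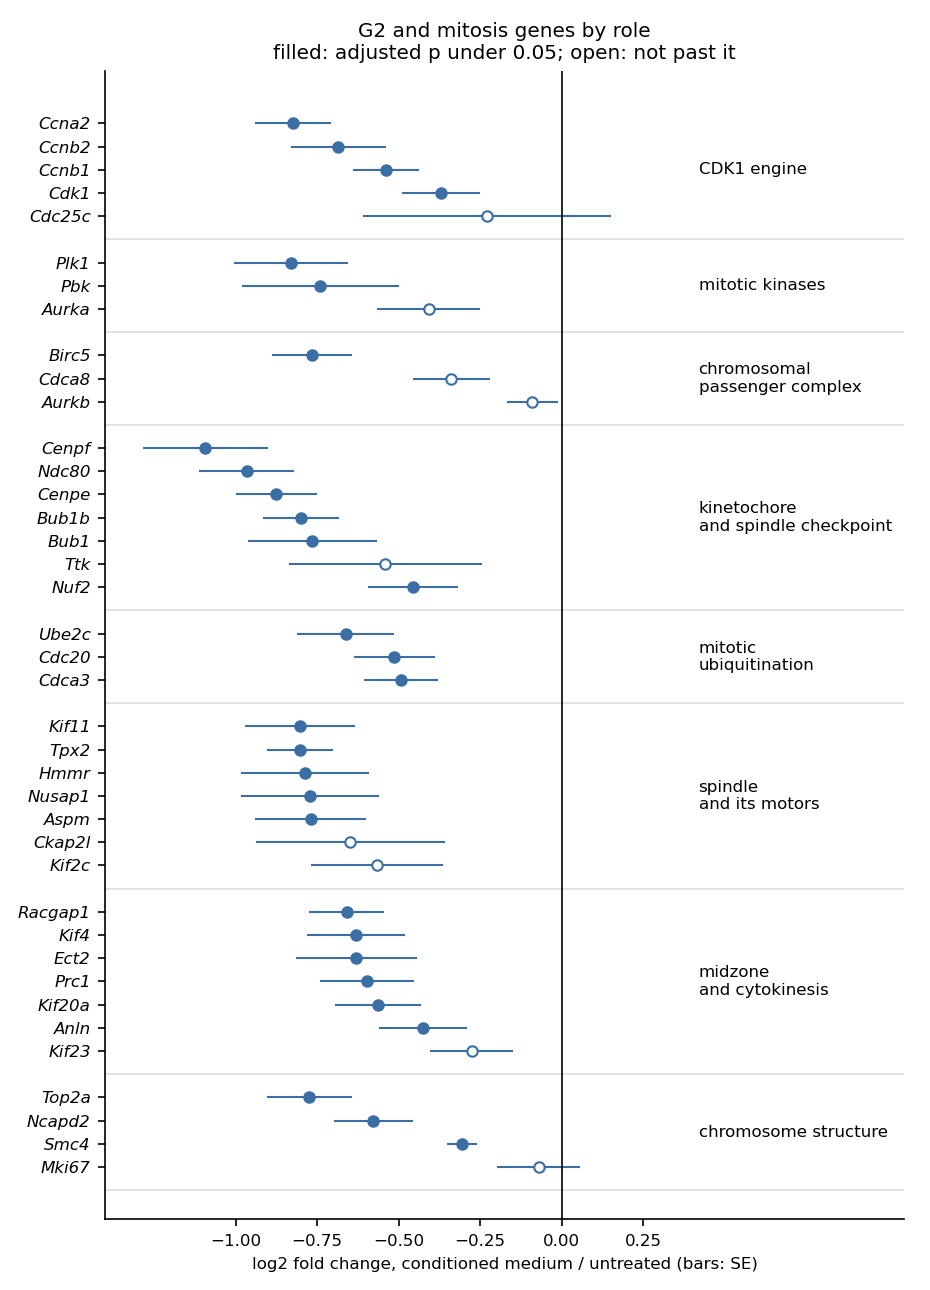
Fitted log2 fold change (conditioned medium over untreated, horizontal axis) of each of the 39 G2 and mitosis genes, grouped by role, with its standard error as a bar; filled points passed the test and open points did not. Every point lies left of 0, between -1.09 (Cenpf) and -0.07 (Mki67).

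Wells of the same group also differed. Within the untreated group the median member deviated by 0.09, 0.17 and -0.25 on the log2 scale in wells 1, 2 and 3, and within the conditioned-medium group by 0.02, 0.10 and -0.13, while the median over all genes stayed within 0.01 of the group mean in each well. Wells numbered 3 were thus low in both groups. Compared by number, 39 members were lower in pair 1 (median log2 ratio -0.67), 39 in pair 2 (-0.69) and 36 in pair 3 (-0.53). The 3 exceptions in pair 3 were Mki67 (0.26 higher on the log2 scale), Cdc25c (0.02) and Aurkb (0.02).

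The CDK1 engine comprised Cdk1, the kinase that drives mitotic entry, its partners Ccna2, Ccnb1 and Ccnb2, and Cdc25c, a phosphatase that activates it. Of these 5 genes 4 fell, with a group median of -0.54. Cdk1 measured 17.8, 20.0 and 15.4 CPM in untreated wells and 13.7, 15.6 and 11.8 CPM in conditioned medium. The groups overlapped, since conditioned medium 2 exceeded untreated 3. Cdk1 was 1.29-fold lower (log2 -0.37, SE 0.12, adjusted p = 0.0480) and lost the call without untreated 1 (0.109), untreated 2 (0.176), conditioned medium 1 (0.126) or conditioned medium 3 (0.122). Ccna2, the cyclin of S phase and G2, went from 13.7, 14.2 and 11.5 CPM to 8, 7.72 and 6.47 CPM. All 3 treated wells lay clearly below the untreated ones, a 1.77-fold fall (log2 -0.82, SE 0.12, adjusted p = 0.000741). Ccnb1 went from 13.3, 11.7 and 10.6 CPM to a tight 8.07, 8.01 and 8.43 CPM, a 1.45-fold fall without overlap (log2 -0.54, SE 0.10, adjusted p = 0.00365). Ccnb2 fell 1.61-fold (log2 -0.68, SE 0.15, adjusted p = 0.00698). Cdc25c was the scarcest member, at 0.92, 0.867 and 0.441 CPM untreated and 0.853, 0.591 and 0.447 CPM in conditioned medium, with as few as 11 counts in a library. Its wells overlapped and its log2 difference of -0.23 had a 95% interval from -1.08 to 0.63 (adjusted p = 0.705), so a change was not detectable at this depth.

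Of the mitotic kinases, Plk1, the Polo-like kinase of spindle assembly and cytokinesis, fell the most. It measured 8.07, 10.7 and 6.82 CPM in untreated wells and 5.05, 5.19 and 4.13 CPM in conditioned medium, without overlap, a 1.78-fold fall (log2 -0.83, SE 0.18, adjusted p = 0.00678). Pbk, a mitotic kinase of dividing cells, went from 5.02, 5.20 and 3.89 CPM to 3.64, 2.96 and 1.82 CPM. Its treated wells were scattered but all lay below the untreated ones (1.67-fold, log2 -0.74, SE 0.24, adjusted p = 0.0474). The Pbk call was lost without untreated 1 (0.126), untreated 2 (0.149), conditioned medium 2 (0.0925) or conditioned medium 3 (0.0824), which left 1 of the 3 kinases called. Without conditioned medium 1 or untreated 3, both Plk1 and Pbk were called. Aurka, the Aurora kinase of centrosomes and spindle poles, measured 7.32, 5.90 and 5.29 CPM and then 4.59, 5.25 and 4.10 CPM. The groups only just stayed apart, and the log2 difference of -0.41 (95% interval -0.76 to -0.05) did not pass over all genes (adjusted p = 0.0864), though it did with the replicate number as a block (0.0271).

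The chromosomal passenger complex corrects faulty attachments and controls cytokinesis, and its subunit genes had different fitted values. Birc5 (survivin), the subunit that docks the complex on centromeres, fell from 9.20, 10.8 and 8.54 CPM to 5.74, 5.94 and 5.06 CPM. The groups stood well apart, a 1.70-fold fall (log2 -0.77, SE 0.12, adjusted p = 0.00150). Aurkb, its kinase, stayed near its starting level, at 14.4, 14.4 and 13.4 CPM untreated and 13.8, 12.3 and 13.5 CPM in conditioned medium. The wells interleaved, and the 95% interval of the log2 difference of -0.09 ran from -0.27 to 0.09 (adjusted p = 0.441), a range that does not reach the fitted value of Birc5. Cdca8 (borealin), a scaffold subunit, measured 12.3, 14.1 and 10.7 CPM and then 10.8, 9.39 and 9.09 CPM. Conditioned medium 1 just exceeded untreated 3, and the log2 difference of -0.34 (95% interval -0.60 to -0.07) missed the threshold (adjusted p = 0.0597), which it passed with the block (0.0131) and without untreated 3 (0.0219). Incenp, the remaining scaffold, named here after its value was seen, differed by -0.06 on the log2 scale (adjusted p = 0.382).

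Genes of the kinetochore and the spindle checkpoint held the members with the lowest fitted values, and 6 of 7 fell (median -0.80). Cenpf, a large coiled-coil protein of the outer kinetochore (chromosome 1, 189640606 to 189688086, GRCm38), measured 6.56, 6.61 and 4.53 CPM in untreated wells and 3.15, 2.82 and 2.31 CPM in conditioned medium. No wells overlapped, and Cenpf fell 2.13-fold (log2 -1.09, SE 0.19, adjusted p = 0.00246). Ndc80, a microtubule-binding subunit of the complex of that name (chromosome 17, 71496100 to 71526857), fell from 6.69, 6.77 and 5.37 CPM to 3.05, 3.51 and 3.06 CPM. That was a 1.95-fold fall with tight treated wells (log2 -0.97, SE 0.14, adjusted p = 0.00106). Nuf2, its partner within the same subcomplex, went from 6.73, 6.81 and 6.01 CPM to 5.51, 4.53 and 4.20 CPM (1.37-fold, log2 -0.46, SE 0.14, adjusted p = 0.0348). The Nuf2 wells did not overlap, but the call was lost without untreated 1 (0.0965), untreated 2 (0.111), conditioned medium 2 (0.0962) or conditioned medium 3 (0.0907). Spc24 and Spc25, the other 2 subunits of the Ndc80 complex and named after their values were seen, fell by 1.02 and 0.57 on the log2 scale (adjusted p = 0.0131 and 0.0352). Spc24 lost the call without untreated 2 (0.0616), and Spc25 lost it without any of 5 libraries (untreated 1 and 2, 0.124 each, and conditioned medium 1, 2 and 3, 0.0854, 0.100 and 0.0616).

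Cenpe, the kinetochore motor that carries chromosomes to the spindle equator, went from 9.24, 10.2 and 8.34 CPM to 4.59, 4.93 and 5.65 CPM. Its groups stood far apart, a 1.83-fold fall (log2 -0.88, SE 0.13, adjusted p = 0.000789). Bub1b (BubR1), an inhibitor of the anaphase-promoting complex, was the most abundant gene of this group by CPM, at 20.3, 21.2 and 17.0 CPM and then 13, 10.7 and 9.88 CPM. It fell 1.74-fold without overlap (log2 -0.80, SE 0.12, adjusted p = 0.000957). Bub1, the checkpoint kinase related to it, fell 1.70-fold (log2 -0.76, adjusted p = 0.0179), a call lost without untreated 1 (0.0595), untreated 2 (0.0782) or conditioned medium 1 (0.0766). Ttk (MPS1), the kinase that starts checkpoint signalling, measured 2.55, 2.31 and 1.48 CPM and then 1.84, 1.54 and 0.964 CPM. Untreated 3 lay among the treated wells, and the log2 difference of -0.54 had a 95% interval from -1.21 to 0.13 (adjusted p = 0.215).

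All 3 genes of mitotic ubiquitination fell (median -0.51). Ube2c, the ubiquitin-conjugating enzyme that works with the anaphase-promoting complex, went from 11.9, 12.1 and 8.38 CPM to 6.82, 7.39 and 6.23 CPM. The groups did not overlap, and the fall was 1.58-fold (log2 -0.66, SE 0.15, adjusted p = 0.00917). Cdc20, the activator of that complex at anaphase, fell 1.43-fold from 7.90, 6.57 and 6.90 CPM to 5.38, 4.99 and 4.58 CPM (log2 -0.51, SE 0.12, adjusted p = 0.0133), and lost the call without untreated 1 (0.0549). Cdca3, a ubiquitin ligase adaptor linked to Wee1 degradation, fell from 9.45, 11.8 and 9.22 CPM to 7.28, 7.16 and 7.19 CPM. Its 3 treated wells were almost equal and all below the untreated range (1.41-fold, log2 -0.49, SE 0.11, adjusted p = 0.0107).

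Of 7 genes of the spindle and its motors 5 fell, the group median was -0.77, and no wells overlapped between groups in any of the 7. Tpx2, which activates Aurora A and nucleates microtubules near chromosomes, measured 16, 17 and 15.7 CPM in untreated wells and 10.2, 9.69 and 7.99 CPM in conditioned medium. Even the highest treated well lay far below the untreated range, a 1.74-fold fall (log2 -0.80, SE 0.10, adjusted p = 0.000364). Kif11 (Eg5), the motor that pushes spindle poles apart, fell 1.74-fold as well, from 9.91, 10.5 and 6.62 CPM to 5.22, 5.35 and 4.92 CPM (log2 -0.80, SE 0.17, adjusted p = 0.00667). Nusap1, a microtubule-bundling protein, went from 8.78, 8.13 and 5.05 CPM to 4.10, 5.02 and 3.72 CPM. Untreated 3 lay only just above conditioned medium 2, and the 1.71-fold fall (log2 -0.77, SE 0.21, adjusted p = 0.0232) lost its call without untreated 1 (0.0886), untreated 2 (0.0888), conditioned medium 1 (0.0830) or conditioned medium 3 (0.0611). Aspm, a spindle pole protein, fell 1.71-fold (log2 -0.77, adjusted p = 0.00844). Hmmr, a microtubule-associated hyaluronan receptor, fell 1.73-fold (log2 -0.79, adjusted p = 0.0153), a call lost without untreated 1 (0.0519), untreated 2 (0.0665) or conditioned medium 1 (0.0627).

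A pair of spindle genes did not pass. Kif2c (MCAK), a microtubule-depolymerising kinesin, measured 5.44, 6.61 and 4.57 CPM and then 4.46, 3.94 and 2.79 CPM. Its log2 difference was -0.57 (95% interval -1.02 to -0.11, adjusted p = 0.0652), and it passed with the block (0.00527) and without untreated 3 (0.0418). Ckap2l, a mitotic spindle protein, measured 6.86, 7.31 and 5.85 CPM and then 5.25, 5.38 and 2.10 CPM. Conditioned medium 3 stood far below the other treated wells, and the log2 difference of -0.65 (95% interval -1.30 to 0.01, adjusted p = 0.134) passed with the block (0.00539). With the block all 7 spindle genes were called. Without untreated 1, untreated 2 or conditioned medium 1 the count of 5 became 3.

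Genes of the midzone and cytokinesis fell in 6 of 7 cases, with a median of -0.60. Racgap1 and Kif23 form centralspindlin, the complex that bundles midzone microtubules and recruits Ect2. Racgap1 fell from 21.8, 21.3 and 16.5 CPM to 13, 13.4 and 11.3 CPM, without overlap (1.58-fold, log2 -0.66, SE 0.12, adjusted p = 0.00246). Kif23 measured 15.6, 16.3 and 12.3 CPM and then 10.9, 14.0 and 11.5 CPM. Conditioned medium 2 lay above untreated 3, and the log2 difference of -0.28 (95% interval -0.57 to 0.01) did not pass (adjusted p = 0.145), though it did with the block (0.0249) and without untreated 3 (0.0359). Anln (anillin), a scaffold of the contractile ring, went from 10.8, 10.9 and 8.18 CPM to 6.82, 8.27 and 7.16 CPM. The groups overlapped slightly, and the 1.34-fold fall (log2 -0.43, SE 0.14, adjusted p = 0.0428) was lost without untreated 1 (0.133), untreated 2 (0.151), conditioned medium 1 (0.146) or conditioned medium 3 (0.0940).

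The other midzone genes fell by similar amounts. Kif4, a chromokinesin that also sets midzone length, fell 1.55-fold (log2 -0.63, adjusted p = 0.0127), Ect2, the exchange factor that activates RhoA at the cleavage furrow, 1.55-fold (log2 -0.63, adjusted p = 0.0325), Prc1, the crosslinker of antiparallel microtubules, 1.51-fold (log2 -0.60, adjusted p = 0.0137) and Kif20a, a midzone kinesin, 1.48-fold (log2 -0.56, adjusted p = 0.0116). The number of calls in this group moved with single wells: its count of 6 was 2 without untreated 1 or untreated 2, 3 without conditioned medium 1 and 4 without conditioned medium 3. Of the 13 calls lost in these fits, 5 had an adjusted p just over the threshold, with Kif4 at 0.0524 and Prc1 at 0.0524 without untreated 1, Kif20a at 0.0520 and Prc1 at 0.0609 without untreated 2, and Prc1 at 0.0559 without conditioned medium 1. Ect2 moved to between 0.0826 (without conditioned medium 3) and 0.121 (without untreated 2), with 0.0944 without untreated 1 and 0.107 without conditioned medium 1, and Anln had the values given above. Racgap1 was called in all of these fits.

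**Figure D2:**
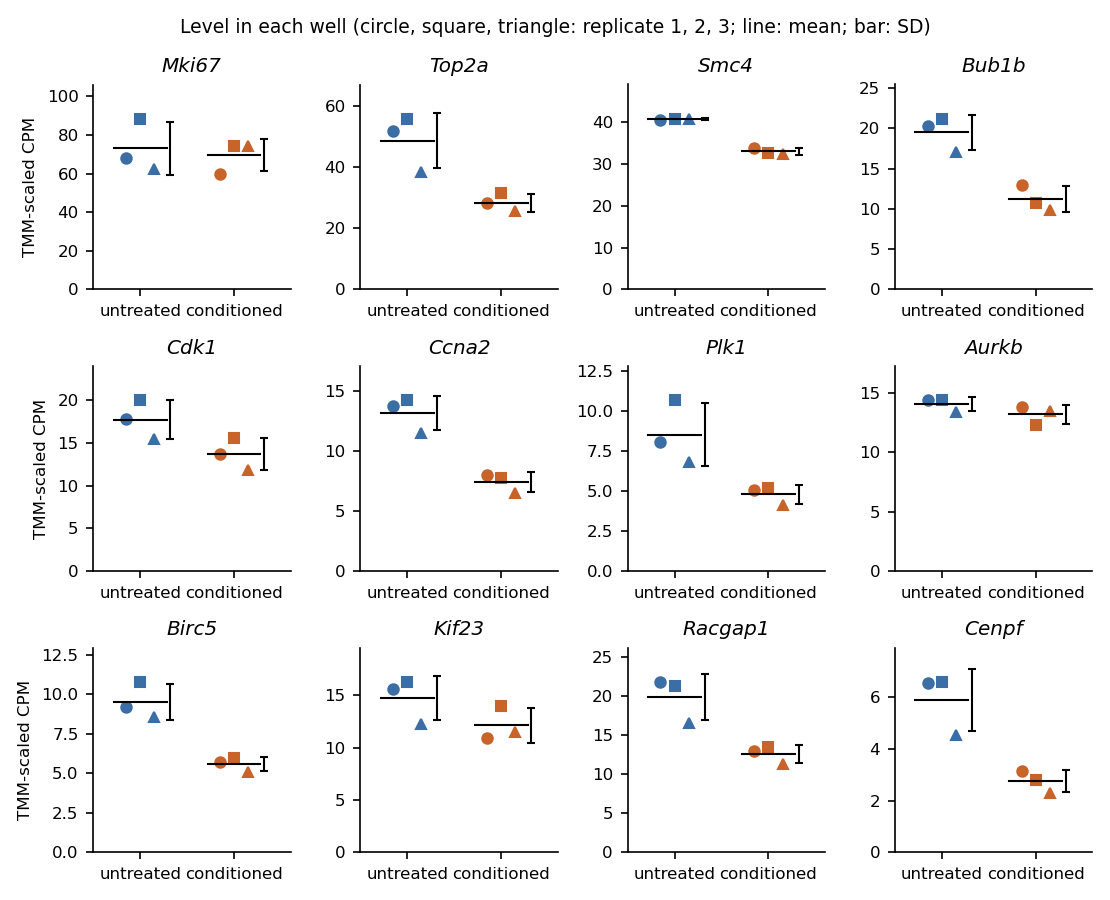
Level of selected G2 and mitosis genes in each of the 6 wells (TMM-scaled CPM, vertical axes from 0), untreated beside conditioned medium; circle, square and triangle mark wells 1, 2 and 3, the line is the mean of 3 wells and the bar its SD. Top2a fell in all 3 treated wells while Mki67 overlapped between groups, and untreated 3 (blue triangle) was the lowest untreated well in every panel but that of Smc4.

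Of 4 chromosome structure genes 3 fell, and the best-known proliferation marker did not. Top2a, the topoisomerase that untangles and compacts mitotic chromosomes (chromosome 11, 98992943 to 99024189), measured 51.7, 55.9 and 38.5 CPM in untreated wells and 28.2, 31.5 and 25.6 CPM in conditioned medium. No wells overlapped, and Top2a fell 1.71-fold (log2 -0.77, SE 0.13, adjusted p = 0.00192). Mki67, which encodes Ki-67, the coat protein of mitotic chromosomes (chromosome 7, 135689784 to 135716361), measured 68.3, 88.5 and 62.3 CPM and then 59.9, 74.5 and 74.4 CPM. The groups overlapped broadly, and the log2 difference of -0.07 had a 95% interval from -0.36 to 0.22 (adjusted p = 0.730), a range that does not reach the fitted value of Top2a. Its sign turned without untreated 2 (0.09, adjusted p = 0.591) and without conditioned medium 1 (0.03, adjusted p = 0.919). Smc4, a core ATPase of both condensins (chromosome 3, 69004738 to 69034623), had the closest replicates, at 40.5, 40.8 and 40.8 CPM and then 33.9, 32.6 and 32.4 CPM. Its fall was small and clear of the spread (1.24-fold, log2 -0.31, SE 0.05, adjusted p = 0.00107). Ncapd2, a condensin I subunit, fell 1.49-fold (log2 -0.58, SE 0.12, adjusted p = 0.00631).

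The promoters of Top2a and Mki67 are shown for this contrast, a pair chosen after their values were seen. Both stretches hold CCAAT boxes and TTTGAA, on GRCm38.p6 from RefSeq as above.
Top2a, chr11:99024190-99024389, minus strand: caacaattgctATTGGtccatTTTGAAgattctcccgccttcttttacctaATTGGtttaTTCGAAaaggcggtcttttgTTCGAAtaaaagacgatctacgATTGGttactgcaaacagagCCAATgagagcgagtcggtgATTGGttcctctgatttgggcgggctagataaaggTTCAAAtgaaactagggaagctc
Mki67, chr7:135716380-135716579, minus strand: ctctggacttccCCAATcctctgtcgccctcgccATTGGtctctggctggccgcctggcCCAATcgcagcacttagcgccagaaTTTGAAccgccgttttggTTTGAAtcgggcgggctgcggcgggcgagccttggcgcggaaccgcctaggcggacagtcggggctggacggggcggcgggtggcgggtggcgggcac

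Top2a held 6 CCAAT, 2 TTTGAA and 2 TTCGAA matches within 250 bases before its start, and Mki67 held 3 CCAAT matches, at 188, 166 and 141 bases before the start, and TTTGAA at 116 and 98 bases. Of the 39 members, 32 were in the promoter table. CCAAT occurred at least once in 26 of the 32 windows (81.2%), against 34.5% of the 27025 genes in that table and 36.6% of the 10060 of them tested here. At least 2 CCAAT matches were found in 19 (59.4%), against 10.5% and 13.8%. TTTGAA was found in 11 (34.4%), against 16.3% and 10.9%, and TTCGAA in 2 (6.25%), against 1.34% and 1.83%. Both strands were searched, and matches overlapped each other in 1 member, Ube2c. In the stretches printed above, Ccnb2 carried CCAAT at 87, 54 and 21 bases before the start and TTTGAA at 167, Cdc20 carried TTTGAA at 18 bases between CCAAT boxes at 53 and 8, Cdk1 had TTTGAA at 71 and 15 bases, and the Ndc80 window had no match. The 12 members with TTTGAA or TTCGAA had a median log2 fold change of -0.64 with 9 called, and the 20 with neither had -0.65 with 16 called. Only these spellings and the 250 bases before the start were searched, so members with neither are not shown to lack a CHR. Kif20a, Pbk, Cdc25c, Smc4, Aurkb, Ccna2 and Tpx2 were not matched in the promoter table.

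Levels between genes were compared per kilobase of exon (RPKM). In untreated wells Smc4 stood highest, at 7.81 ± 0.0324 RPKM (SD, n = 3), followed by Mki67 at 7.26 ± 1.36, Ccnb2 at 6.00 ± 1.16, Top2a at 5.40 ± 1.01, Aurkb at 4.77 ± 0.205 and Bub1b at 4.56 ± 0.518. Each of these differed from its neighbour in the order by less than the SD of the more variable of the pair. In conditioned medium the order at the top became Mki67 at 6.92 ± 0.835, Smc4 at 6.32 ± 0.151, Aurkb at 4.48 ± 0.274, Ccnb2 at 3.73 ± 0.0597 and Top2a at 3.16 ± 0.330 RPKM, and there only Mki67 and Smc4 differed by less than the larger SD. At the low end stood Cenpf, at 0.382 RPKM, and Cdc25c, at 0.151 RPKM in untreated wells. At least 1 RPKM was reached in untreated wells by 33 of the 39 members.

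Ratios within a well show the uneven changes without any scaling between libraries. The pairs were chosen after the values were seen, so the ratios are given without a test. Mki67 per length over Top2a per length was 1.18, 1.42 and 1.45 in untreated wells and 1.90, 2.12 and 2.61 in conditioned medium, with no overlap. Aurkb over Birc5 was 1.81, 1.54 and 1.81 and then 2.78, 2.39 and 3.08. For centralspindlin, Kif23 over Racgap1 was 0.639, 0.684 and 0.665 and then 0.753, 0.931 and 0.912, and for the Ndc80 complex, Nuf2 over Ndc80 was 1.03, 1.03 and 1.15 and then 1.85, 1.32 and 1.40. In these 4 pairs every treated well had a higher ratio than every untreated well. Other pairs overlapped: Aurka over Tpx2 had means of 0.704 and 0.927, Smc4 over Ncapd2 means of 2.30 and 2.72, and Ccnb1 over Cdk1 means of 0.788 and 0.708 in untreated and treated wells.

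Condensin subunits also moved unequally. Among subunits outside the 39, named after their values were seen, Smc2, the partner of Smc4, fell by 0.63 on the log2 scale (adjusted p = 0.000665), and the condensin I subunit Ncapg fell by 0.77 (adjusted p = 0.00351). Ncaph of condensin I differed by -0.14 (adjusted p = 0.308), and the condensin II subunits Ncapd3 and Ncaph2 by 0.07 (adjusted p = 0.554) and -0.09 (adjusted p = 0.255). The condensin II subunit Ncapg2 rose. It measured 75.7, 74.6 and 78.0 CPM in untreated wells and 131, 122 and 134 CPM in conditioned medium, a 1.70-fold rise (log2 0.77, SE 0.05, adjusted p = 6.54e-06). Per length, Ncapg2 over Ncapg was 9.40, 9.45 and 11.7 in untreated wells and 29.9, 29.8 and 28 in conditioned medium. Ncapg (4.23 CPM) shares 13.4% of its exon bases with Lcorl (26.6 CPM) on the opposite strand, so its value and this ratio are less certain.

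**Figure D3:**
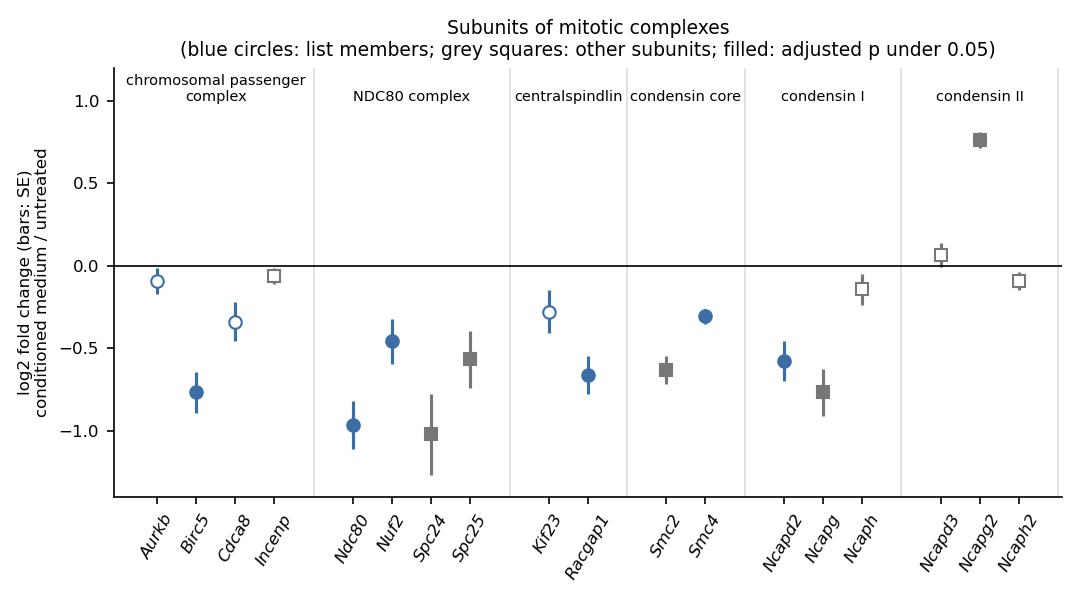
Fitted log2 fold change (conditioned medium over untreated) with its standard error for subunits of mitotic complexes; circles are among the 39 genes and squares are not, filled points passed the test and open points did not. Within a complex the points spread, from a fall of 0.77 for Ncapg to a rise of 0.77 for Ncapg2 among condensin subunits.

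Other mitotic genes, none of them among the 39, were more often lower than higher. Among 67 further genes of the kinetochore, the spindle and cytokinesis, and chromosome structure, 30 fell and 2 rose, and the median log2 fold change was -0.61. Over all tested genes 15.2% fell and 12.6% rose. Of 29 kinetochore and centromere genes 12 fell and 0 rose. The lowest values were those of Oip5 (log2 -1.32, adjusted p = 0.00365), Kntc1 (-1.29, adjusted p = 0.00108) and Ska1 (-1.19, adjusted p = 0.0248). Oip5 takes part in loading the centromeric histone, Kntc1 is a checkpoint protein and Ska1 couples kinetochores to microtubules. Oip5 shares 9.67% of its exon bases with Nusap1 on the opposite strand, so its value is less certain. Ska1 lost the call without any of 5 libraries (adjusted p 0.0517 to 0.105). The count of 12 was 6 without untreated 2, 7 without conditioned medium 3, 8 without conditioned medium 1 and 14 without untreated 3. With the block 18 fell and 1 rose, beside 19.3% and 17% of all tested genes. Of 26 spindle and cytokinesis genes 13 fell and 0 rose, led by Spag5 (-1.18, adjusted p = 0.000303) and Troap (-1.17, adjusted p = 0.0126), both spindle proteins, and Cit (-1.06, adjusted p = 0.00154), the citron kinase of cytokinesis. Troap was not called without untreated 1 (0.0545), untreated 2 (0.0537) or conditioned medium 1 (0.0575). The count of 13 ranged from 9 (without untreated 2) to 15 with each library left out. Of 12 chromosome structure genes 5 fell, with Cdca2 at -0.82 (adjusted p = 0.00974), a chromatin-bound phosphatase targeting subunit, and Espl1 at -0.80 (adjusted p = 0.000301), the protease separase, the lowest. The other gene that rose besides Ncapg2 was Hmgb2, a chromatin protein, by 0.22 (adjusted p = 0.0216), which lost the call without untreated 1 (0.0557), untreated 3 (0.0621), conditioned medium 1 (0.106) or conditioned medium 2 (0.0800).

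Kinases that hold back mitotic entry were among the genes that fell. Of 19 entry kinases, phosphatases and brakes 11 fell and 0 rose (median -0.26), beside 15.2% and 12.6% of all tested genes. The count of 11 became 8 (without untreated 2) to 10 with each library left out. Gadd45g, a stress-induced inhibitor of CDK1, went from 22.7, 23.6 and 16.5 CPM to 7.28, 6.70 and 6.51 CPM, the lowest fitted value of the list (log2 -1.61, SE 0.14, adjusted p = 3.42e-05). Chek1, the checkpoint kinase of damaged or unreplicated DNA, fell by 1.30 on the log2 scale (adjusted p = 0.00318). Pkmyt1 and Wee1, the kinases that hold CDK1 inactive, fell by 1.15 (adjusted p = 0.000384) and 0.90 (adjusted p = 0.00518). Cdc25b, a phosphatase that removes the same block, differed by -0.12 (adjusted p = 0.312). Cdkn1a (p21), an inhibitor of cyclin-dependent kinases, measured 77.6, 78.9 and 103 CPM and then 90.9, 83.8 and 108 CPM, so both wells numbered 3 were the highest of their groups. It differed by 0.12 (adjusted p = 0.489), and by a small rise that passed only with the block (0.0355).

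Regulators of these genes differed in direction. Foxm1, the forkhead activator of G2 genes, measured 11.5, 13.6 and 6.90 CPM in untreated wells and 6.10, 5.52 and 5.34 CPM in conditioned medium. It fell by 0.92 on the log2 scale (SE 0.22, adjusted p = 0.0117), with untreated 3 close to the treated wells. Mybl2 (B-MYB) fell by 0.83 (adjusted p = 0.0116, and 0.0546 without untreated 2). The E2F repressors E2f7 and E2f8 fell by 1.07 (adjusted p = 0.0288) and 0.73 (adjusted p = 0.000930), E2f7 losing its call without untreated 1 (0.0789), untreated 2 (0.109) or conditioned medium 1 (0.0540). E2f1, an activator of S phase genes, fell by 0.30 (adjusted p = 0.00280). Among the pocket proteins Rbl1 (p107) fell by 0.60 (adjusted p = 0.000186), while Rb1 and Rbl2 (p130) rose by 0.24 each (adjusted p = 0.00761 and 0.00419). Rb1 and Rbl2 share exon bases with opposite-strand genes above 1 CPM, so their values are less certain. Among the other genes named outside the 39, the same holds for Oip5, Ncapg, Ncaph2, Pkmyt1, Cdc25b and Ube2s. E2f4, the E2F of the DREAM complex, differed by 0.04 (adjusted p = 0.547). Of the 23 regulators 8 fell and 2 rose, with a median of -0.03, beside 15.2% and 12.6% of all tested genes. Without untreated 2, 5 fell. With the block 8 fell and 4 rose, beside 19.3% and 17% of all tested genes.

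The anaphase-promoting complex and cohesin stood near the median of all genes. Of 17 subunits and regulators of the anaphase-promoting complex 2 fell and 1 rose (median -0.01). These counts were not above the shares of all tested genes, 15.2% lower and 12.6% higher. Without untreated 2 or conditioned medium 1, 1 fell. With the block 3 fell and 2 rose, beside 19.3% and 17% of all tested genes. Anapc5, a scaffold subunit, fell by 0.30 on the log2 scale (adjusted p = 0.00178). Ube2s, its chain-elongating enzyme, fell by 0.20 (adjusted p = 0.0205, and 0.0900 and 0.0549 without untreated 2 and conditioned medium 1). Cdc16 rose by 0.22 (adjusted p = 0.0273, and 0.0994 and 0.112 without untreated 1 and conditioned medium 1). Of 10 cohesin genes 0 passed in either direction in edgeR's test, with 0 lower and 2 higher at an unadjusted p under 0.05, and 0 in DESeq2 and in limma-voom. The smallest p was that of the cohesin loader Mau2 (log2 0.17, adjusted p = 0.0841), which passed with the block (0.0143). Nipbl, another loader, was called higher without untreated 1 (log2 0.12 and adjusted p = 0.125 with all wells, 0.0274 without it). Of 30 DNA replication genes 24 fell and 0 rose (median -0.59), led by Mcm5, a subunit of the replicative helicase (-1.45, adjusted p = 9.84e-05), Uhrf1, which maintains DNA methylation (-1.25, adjusted p = 0.00148), and Pole, a replicative polymerase (-1.09, adjusted p = 0.000618). The DNA replication count of 24 ranged from 18 (without untreated 2) to 26 with each library left out. No test compared these lists with each other.

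**Figure D4:**
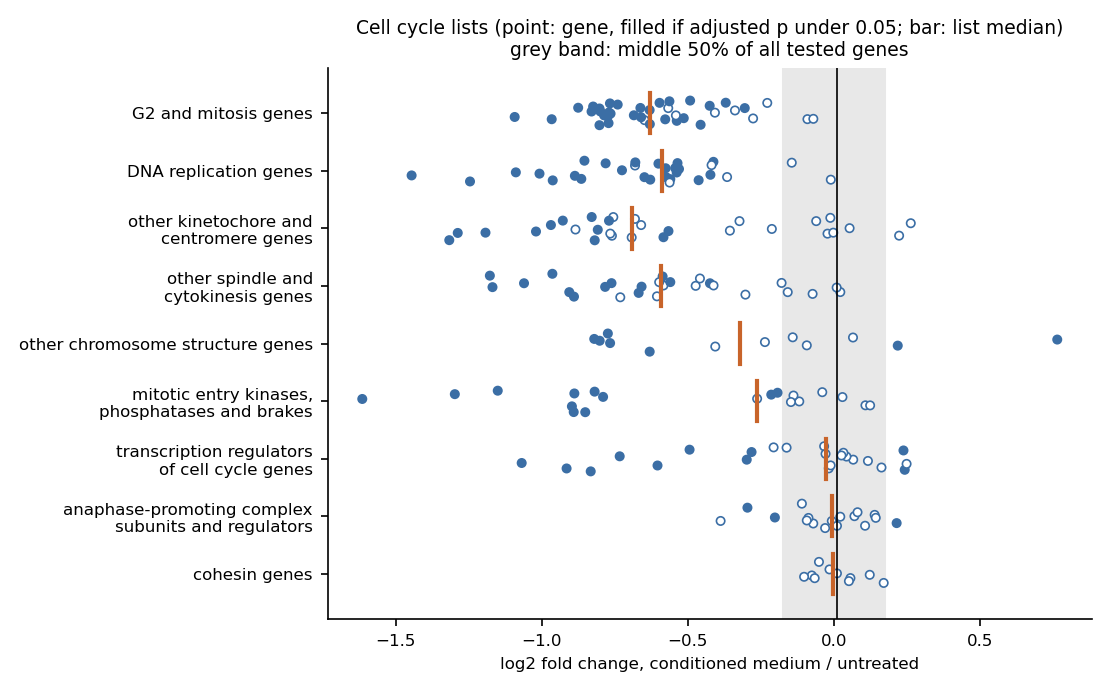
Fitted log2 fold change (conditioned medium over untreated) of every gene in the 39-gene set and in each pathway list, filled where the test was passed, with the median of each list as a bar, the median of all tested genes, 0.01, as a line and their interquartile range (-0.17 to 0.17) as a grey band. The medians lie between -0.69 for other kinetochore and centromere genes and values near 0 for the cohesin and anaphase-promoting complex lists, with the 39 genes at -0.63.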

How the data were processed

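RNA from 6 wells of mouse bone marrow-derived macrophages, 3 untreated and 3 in conditioned medium, had been sequenced after poly(A) selection, per the labels' protocols. The values deposited by the authors are whole-number counts per gene. HISAT2, featureCounts and the GRCm38 build are named in the submitters' processing notes, but versions, strand setting, annotation release and the handling of reads with several matches stand in none of them (not given in the sources used here). Of 55421 gene IDs, 55154 were matched to a symbol, and 26261 genes had at least 1 count.

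Groups were taken from the sample titles and treatments. The 13853 genes kept by edgeR's filterByExpr were scaled by TMM and fitted with edgeR 4.0.16 (glmQLFit and glmQLFTest, R 4.3.3) with group as the only term. P-values were adjusted by Benjamini-Hochberg over all genes tested, at a threshold of 0.05, and glmTreat tested against 1.5-fold. CPM and RPKM are TMM-scaled, with exon lengths from the deposited table. Standard errors are the log2 fold change divided by the root of the F statistic, and the 95% intervals use the fit's degrees of freedom. The steps were tested on simulated data. Depth was 24179548 to 30040682 counts per library, and a floor of 3 counts is 0.0984 to 0.125 CPM. Replicates of a group differed beyond sampling noise, so none was a copy of another.

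Alternatives were RLE scaling, no scaling, DESeq2 1.42.0, limma-voom (limma 3.58.1), robust dispersion, no filter, a mean of at least 1 CPM, thinning to the smallest library, a replicate block, and leaving out each library or both libraries numbered 3. Wells with the same number deviated together (Pearson r = 0.376, 0.204 and 0.397 over 13853 genes, against -0.36 to 0.07 for different numbers), although no source says what a number stands for. The pairing was decided from these correlations, and deviations within a group cancel, so they are not independent.

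The members, pathway lists and cell type markers were chosen with earlier results of these data known. Values in every well are given for the 3 members with the highest mean CPM in each role, further called members with an absolute log2 fold change over 0.8, and members that were not called. For pathway lists, up to 3 called genes of greatest absolute change are named, or the gene with the lowest p if none was called, together with a fixed set of regulators. Promoter windows came from RefSeq's table, with the first listed start of each gene, 250 bases searched and 200 printed.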

Additional observations from a re-analysis of the deposited data

How the results depend on the processing

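All 39 members kept their sign under the 16 alternatives, except Mki67, which was not called and ranged from -0.1725 (without untreated 3) to 0.09028 (without untreated 2) with each library left out, and was 0.02508 without conditioned medium 1. The count of members lower, 30, ranged from 19 (without untreated 1) to 33 when each library was left out in turn, and was 26 to 33 under other scalings, filters and tools. Over all genes, the 2112 lower calls became 1579 to 2001 with each library left out. The count beyond 1.5-fold, 0, was 1 with no low-count filter, 5 with the replicate block and 5 without both libraries numbered 3, and ranged from 0 to 4 (without untreated 3) with each library left out. The median log2 fold change, -0.63, ranged from -0.74 (without untreated 3) to -0.56. Other mitotic genes lower, 30, ranged from 20 to 34 with each library left out. The replicate block called 35 members lower. It kept all 30 calls and added those of Aurka, Cdca8, Kif2c, Ckap2l and Kif23. Without scaling, Cdk1, Pbk, Nuf2 and Anln lost their calls. The cause of these shifts was not tested. With 3 wells a group, a difference that missed the threshold is not shown to be absent, and depth limited Cdc25c, which had 11 counts in its lowest library and was left out at a mean of at least 1 CPM.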
